A study of Oryza sativa with 6 samples.

Results

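The genes described are 7 rice loci that shape the leaf blade or set how it rolls: NAL1, SLL1, DL, SRL1, ADL1, ROC5 and ACL1. They were taken by locus identifier from a count table of 55986 gene models. The names came with the list of 7 loci, since the count table itself holds identifiers only. Leaf RNA of Balilla-4x, a tetraploid rice line obtained by artificial chromosome doubling, was compared with leaf RNA of its diploid parent Balilla-2x. Both lines are Oryza sativa of the japonica subspecies, were 4 weeks old, received the treatment called normal and grew in paddy fields in Shanghai during the natural season. Each line had 3 libraries. The tetraploid is represented by the single doubled line, and the labels do not say whether the libraries of a line came from separate plants or from pools. The p-values therefore speak only to the spread among these libraries, and that spread may be technical.

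The rice blade is laid down with an upper (adaxial) and a lower (abaxial) face. Bulliform cells, large water-filled cells of the upper epidermis, are among the tissues that set its curvature. Changes in their number, size or place are known to roll the blade inward or outward. Mutants of the 7 genes fall into groups by the shape they give. NAL1 mutants have narrow leaves, DL mutants lack the midrib and droop, SLL1 and SRL1 mutants roll inward, and ADL1 and ROC5 mutants curl outward. ACL1 is known from plants in which its activation curls the blade outward.

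The name of 5 of the 7 genes was found in NCBI RefSeq's rice gene table (assembly ASM3414082v1), and in all 5 cases on the chromosome that the locus identifier names. These were NAL1 (LOC_Os04g52479, chromosome 4), SLL1 (LOC_Os09g23200, chromosome 9), DL (LOC_Os03g11600, chromosome 3), ADL1 (LOC_Os02g47970, chromosome 2) and ROC5 (LOC_Os02g45250, chromosome 2). SRL1 is LOC_Os07g01240 on chromosome 7, and ACL1 is LOC_Os04g33860 on chromosome 4. The build behind the deposited counts is not given in the sources used here, so no base positions are printed. The gene lengths behind the deposited FPKM values were 889 bases for ACL1, 1599 for SLL1, 2063 for SRL1, 3019 for NAL1, 3437 for ROC5 and 7433 for ADL1. For DL no length could be derived, because it had no counts.

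The libraries held 16738447 to 17078688 counts in Balilla-4x and 17147985 to 18106962 in Balilla-2x, and no library was a copy of another (chi-square over degrees of freedom was at least 8.37 between libraries of a line). They separated by line on the first principal component of log2 CPM (74.4% of the variance). Balilla-4x replicate 1 stood apart from its line on the second (8.64%). In Balilla-4x replicate 2 the genes of chromosome 2, which carries ROC5 and ADL1, had a median 0.09 above the mean of all libraries on the log2 scale. The medians of all other pairs of chromosome and library lay between -0.02 and 0.04. Leaf marker genes could not be checked, since the files pair no marker name with an identifier.

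Of the 7 genes, ROC5 rose and ACL1 fell in the tetraploid, and the fitted change of each was under 2-fold. ADL1, NAL1 and SRL1 were well read and did not pass the test. SLL1 was hardly read in either line, and DL had 0 counts in every library. A filter on low counts left 5 of the 7 for testing. Among these, 2 were called at an adjusted p under 0.05, against 26.1% of all 20976 tested genes, and 0 were called with a change of at least 2-fold, against 11.7% of all tested genes. The share called higher was 12.4% over all tested genes and the share called lower 13.7%. The count was 1 without Balilla-4x replicate 2 or 3 and without Balilla-2x replicate 2 or 3, where ACL1 missed the threshold. In these 4 fits the share called over all genes was also lower, at 14.2%, 15.4%, 18.7% and 15.2% in the order named. ACL1 passed 2-fold without replicate 1 of either line. With 5 genes tested, a count of 2 does not set them apart from that background. Their median log2 fold change was 0.05, and that of all tested genes 0.01. By size the 5 genes had a median absolute log2 fold change of 0.16, against 0.31 over all tested genes. The tested genes cover all count levels and were not matched to the 5 by counts. The 2 medians therefore do not show that the 5 genes change less than others.

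**Figure D1:**
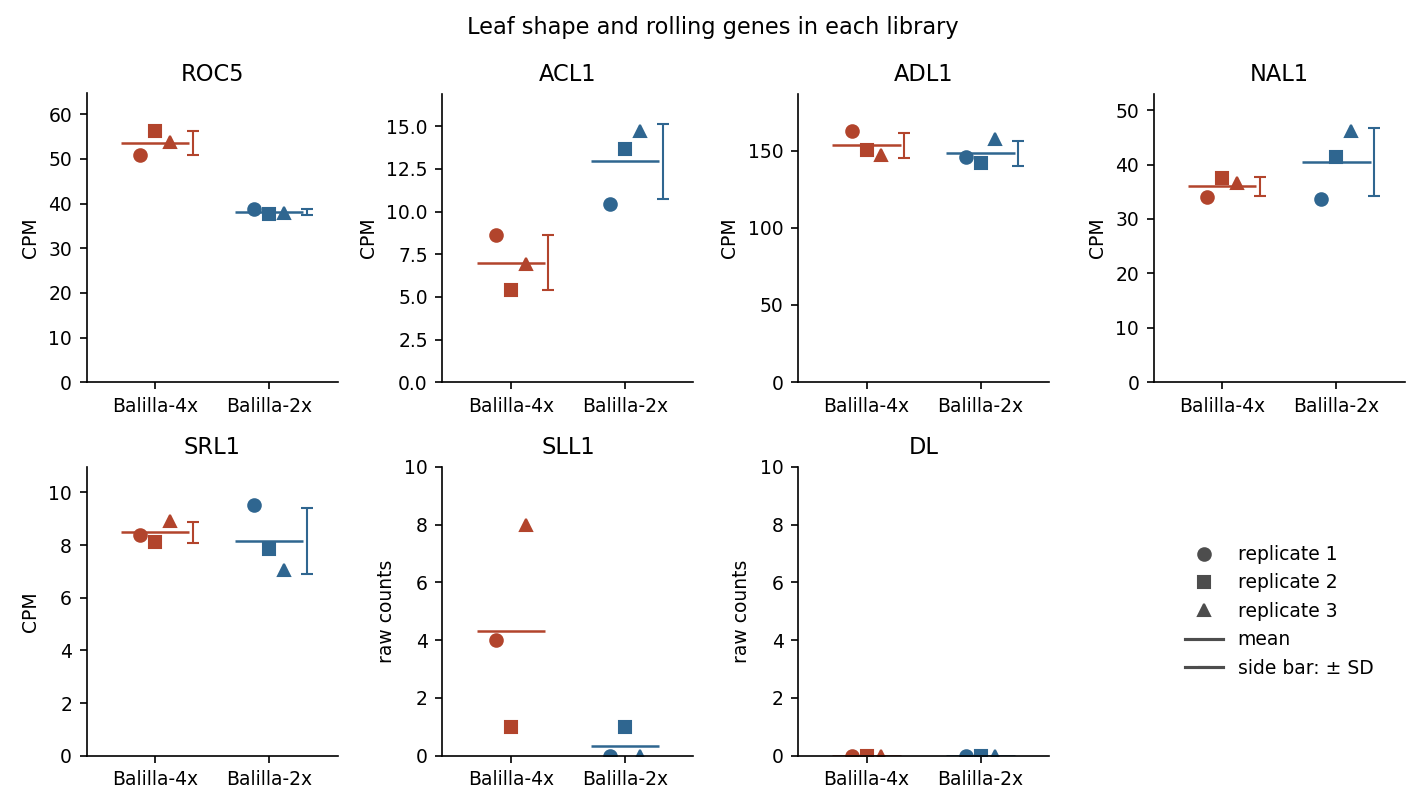
Level of each gene in each library, as TMM-scaled CPM for the 5 tested genes and as raw counts for SLL1 and DL. Points are libraries with a marker for each replicate number, horizontal lines are means and side bars are ± SD (n = 3 libraries a line). The lines are separate for ROC5 (50.9 to 56.2 CPM in Balilla-4x, 37.8 to 38.9 in Balilla-2x) and for ACL1, while they overlap for the other 3 tested genes.

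ROC5 encodes a class IV homeodomain leucine zipper transcription factor of the outermost cell layer. Its loss is known to increase bulliform cells and curl the blade outward. ROC5 had 868, 989 and 921 counts in Balilla-4x, against 685, 667 and 638 counts in Balilla-2x. In CPM, counts scaled to a common library size with edgeR's TMM factors, the Balilla-4x libraries stood at 50.9, 56.2 and 53.8 and the Balilla-2x libraries at 38.9, 37.8 and 37.8. Every tetraploid library lay above every diploid library, and the diploid libraries lay close together. Over all tested genes, the lines did not overlap in 44.3%, with Balilla-4x higher in 21.6% and lower in 22.6%. ROC5 averaged 53.6 ± 2.68 CPM in the tetraploid and 38.2 ± 0.629 CPM in the diploid (SD, n = 3 libraries each). It was 1.41-fold higher in the tetraploid, with a 95% interval of 1.23 to 1.61 (log2 fold change 0.49, standard error 0.09, edgeR quasi-likelihood adjusted p = 0.00488). In bulk leaf RNA, a change in the number of epidermal cells and a change in ROC5 RNA per cell cannot be told apart.

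The difference in ROC5 was of like size without the library whose chromosome 2 stood higher. Without Balilla-4x replicate 2 the log2 fold change was 0.47 (edgeR adjusted p = 0.0243). Taken relative to the median of chromosome 2 in the same library, ROC5 lay at 0.23 ± 0.04 in the tetraploid and -0.24 ± 0.02 in the diploid on the log2 scale (SD, n = 3 libraries each). The exact permutation test gave p = 0.1 for that difference of 0.47, two-sided, which is the smallest p that 3 libraries against 3 can give. This relative measure was added after the chromosome 2 median had been seen.

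ACL1 encodes a small plant-specific protein, and its overexpression is known to enlarge and multiply bulliform cells. It had 147, 95 and 119 counts in Balilla-4x, against 184, 241 and 248 counts in Balilla-2x. The levels were 8.62, 5.4 and 6.95 CPM in the tetraploid libraries and 10.4, 13.6 and 14.7 CPM in the diploid ones. All 3 tetraploid libraries were below all diploid libraries, but each line was wide, and the closest pair was replicate 1 of each line. The means were 6.99 ± 1.61 CPM in the tetraploid and 12.9 ± 2.22 CPM in the diploid (SD, n = 3 libraries each). ACL1 was 1.85-fold lower in the tetraploid, with a 95% interval of 1.32 to 2.59 (log2 fold change -0.89, standard error 0.21, edgeR adjusted p = 0.0173). The call was lost in 4 of the 6 fits with a library left out, in which fewer genes were called over the whole table too. The edgeR adjusted p was 0.0665 without Balilla-4x replicate 2, 0.0577 without Balilla-4x replicate 3, 0.0516 without Balilla-2x replicate 2 and 0.0655 without Balilla-2x replicate 3. The log2 fold change stayed between -1.07 and -0.72 over the 6 fits with a library left out.

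Among all tested genes these were moderate changes. The absolute log2 fold change of ACL1 was larger than that of 82.5% of tested genes, and that of ROC5 larger than that of 65.6%. Among called genes only, ACL1 stood at 49.7% and ROC5 at 19.6% on the same scale.

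**Figure D2:**
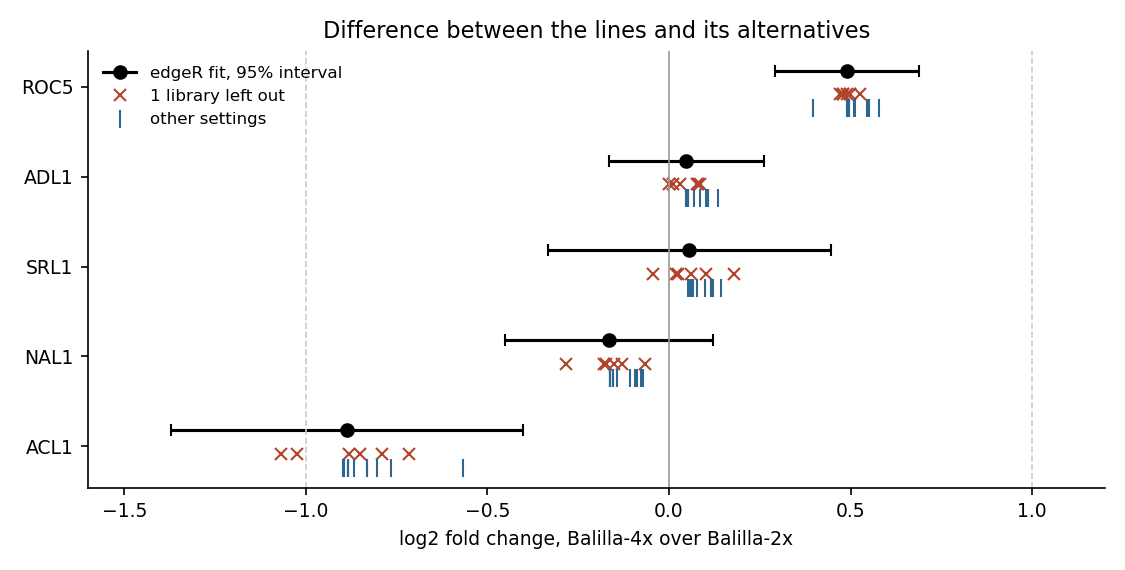
Log2 fold change of the 5 tested genes, Balilla-4x over Balilla-2x. Black points are the edgeR fit with its 95% interval, red crosses are fits with 1 library left out and blue ticks are other scalings, filters, tests and units. Dashed lines mark 2-fold. All points of ROC5 lie above 0 and all points of ACL1 below it, while the intervals of ADL1, SRL1 and NAL1 include 0.

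ADL1, the rice calpain-like cysteine protease related to maize DEK1, is known to maintain epidermal identity and leaf polarity. It had 2774, 2642 and 2522 counts in Balilla-4x, against 2570, 2505 and 2652 counts in Balilla-2x. The groups overlapped, and every library was within a narrow band. ADL1 averaged 153 ± 8.14 CPM in the tetraploid and 148 ± 8.02 CPM in the diploid (SD, n = 3 libraries each). The log2 fold change was 0.05 and did not pass the test (edgeR adjusted p = 0.738). Its 95% interval was 0.892-fold to 1.2-fold. ADL1 also lies on chromosome 2, and relative to that chromosome's median the difference was 0.03 (log2, exact permutation p = 0.7, 3 libraries against 3).

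NAL1 encodes a protease known to affect vein number, leaf width and auxin transport. NAL1 was read at 582, 659 and 626 counts in Balilla-4x and at 594, 731 and 778 counts in Balilla-2x. The diploid libraries spread more widely, and Balilla-2x replicate 1 was at 33.7 CPM, below all tetraploid libraries, while the other diploid libraries at 41.4 and 46.1 CPM were above them all. NAL1 averaged 36.0 ± 1.73 CPM in the tetraploid and 40.4 ± 6.27 CPM in the diploid (SD, n = 3 libraries each). The log2 fold change of -0.16 did not pass the test (edgeR adjusted p = 0.368), and its 95% interval reached from 0.731-fold to 1.09-fold.

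SRL1 encodes a putative glycosylphosphatidylinositol-anchored protein, and its loss is known to increase bulliform cells and roll the leaf inward. It had 143, 143 and 153 counts in Balilla-4x, against 168, 139 and 119 counts in Balilla-2x. The tetraploid libraries fell inside the range of the diploid ones. SRL1 averaged 8.48 ± 0.41 CPM in the tetraploid and 8.15 ± 1.26 CPM in the diploid (SD, n = 3 libraries each), and its log2 fold change was 0.06 (edgeR adjusted p = 0.835). The 95% interval was 0.793-fold to 1.36-fold. Without Balilla-2x replicate 3 the sign turned, with a log2 fold change of -0.043 (edgeR adjusted p = 0.895).

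SLL1 encodes a KANADI-type MYB transcription factor that is known to specify the abaxial side of the blade. It had 4, 1 and 8 counts in Balilla-4x and 0, 1 and 0 counts in Balilla-2x. The lines met at 1 count, and SLL1 was removed by the filter on low counts. The 13 counts in the tetraploid and 1 in the diploid gave a ratio of 13.1 after scaling, with an exact 95% interval of 1.97 to 556 that covers counting error only. Without the filter, where 30986 genes entered the fit, the edgeR adjusted p of SLL1 was 0.162 (unadjusted p = 0.0476).

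DL encodes a YABBY transcription factor known for forming the midrib and for specifying carpels. It had 0 counts in each of the 6 libraries. A count of 0 allows up to 3 counts per library, which is 0.17 to 0.178 CPM, and 0.0289 CPM over the 6 libraries together. In all, 25000 of the gene models (44.7%) had 0 counts in every library. At this depth no DL transcript was detected in either line, and no comparison could be made.

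**Figure D3:**
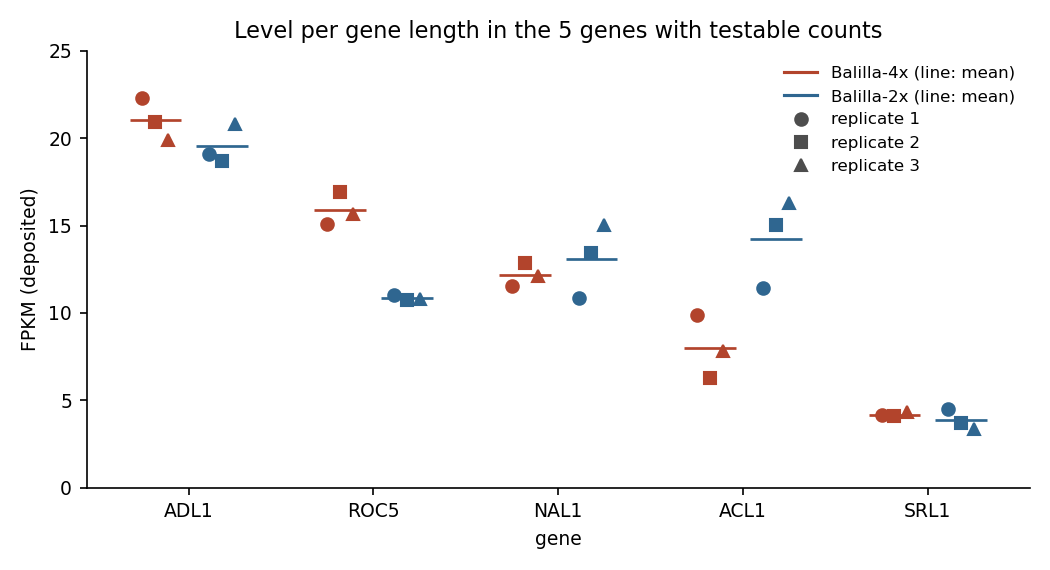
Deposited FPKM of the 5 tested genes, which divides counts by gene length and library total. Points are libraries and short lines are means (n = 3 libraries a line). ADL1 is highest and SRL1 lowest in both lines, while ROC5 and ACL1 take opposite places between them.

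Levels of different genes were compared per length, as deposited FPKM. ADL1 was the most abundant, at 19.9 to 22.3 FPKM in Balilla-4x and 18.7 to 20.8 FPKM in Balilla-2x. SRL1 was the least abundant of the tested genes, at 4.08 to 4.34 FPKM in Balilla-4x and 3.36 to 4.50 FPKM in Balilla-2x. The 3 genes between them changed places. In Balilla-4x the order was ROC5 (15.9 ± 0.947 FPKM), NAL1 (12.2 ± 0.669) and ACL1 (8.0 ± 1.8), as means with SD over 3 libraries, and no neighbours in that order overlapped. In Balilla-2x it was ACL1 (14.2 ± 2.51 FPKM), NAL1 (13.1 ± 2.1) and ROC5 (10.9 ± 0.128), and the ranges of ACL1 and NAL1 and of NAL1 and ROC5 overlapped, while ACL1 and ROC5 were separate. SLL1 reached at most 0.293 FPKM in a Balilla-4x library and 0.0347 FPKM in a Balilla-2x library. By mean FPKM over all libraries, ADL1 was above 79.8% of the 30986 genes with a count, ROC5 above 72.2%, NAL1 above 71.2%, ACL1 above 68.9%, SRL1 above 53.2% and SLL1 above 18.9%.

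**Figure D4:**
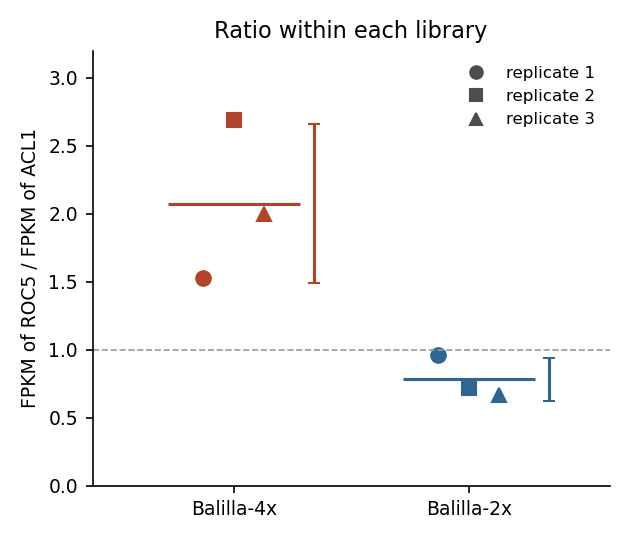
FPKM of ROC5 divided by FPKM of ACL1 in each library. Points are libraries, horizontal lines are means and side bars are ± SD (n = 3 libraries a line). All Balilla-4x libraries lie above a ratio of 1 (dashed) and all Balilla-2x libraries below it.

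A ratio of 2 genes within a library does not depend on how that library is scaled. ROC5 and ACL1 were set against each other because they are the genes called higher and lower, so their ratio restates those calls on a scale free of library size. ROC5 divided by ACL1 was 1.53, 2.69 and 2.00 in the Balilla-4x libraries, against 0.963, 0.716 and 0.665 in the Balilla-2x libraries, on the FPKM scale. Per length, ROC5 RNA was thus above ACL1 RNA in each tetraploid library and below it in each diploid library, though only slightly in Balilla-2x replicate 1. Where the ratio crosses 1 depends on the gene lengths used. In raw counts ROC5 was above ACL1 in every library, from 2.57-fold in Balilla-2x replicate 3 to 10.4-fold in Balilla-4x replicate 2. The ratio averaged 2.07 ± 0.586 in Balilla-4x and 0.781 ± 0.159 in Balilla-2x, with SD over 3 libraries each. Of the 10 pairs of tested genes, 7 had ratios that did not overlap between the lines, against 45.3% of all pairs of tested genes. Each of these 7 includes ROC5 or ACL1, so this count also restates those calls. The pairs share genes and are not independent, so it shows no excess over that background. The 3 pairs among ADL1, NAL1 and SRL1 overlapped. Pairs with SLL1 or DL were not read, since those genes had 0 to 8 counts. Adjusted over all 21 possible pairs, the smallest exact permutation p was 0.191. Even before adjustment, 3 libraries against 3 cannot give an exact permutation p below 0.1. No pair could therefore come under 0.05, whatever its values.

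The coefficient of variation between libraries of a line was taken for each tested gene. It includes counting error, which is larger at lower counts, and ACL1 and SRL1 had the fewest counts of the tested genes. The coefficient of variation of ROC5 was 5.0% in Balilla-4x and 1.65% in Balilla-2x, where the median over all tested genes was 13.5% and 12.5% in these lines. ACL1 varied by 23.0% in Balilla-4x and 17.2% in Balilla-2x, above the median gene in each line. ADL1 stayed near the same spread, at 5.31% in Balilla-4x and 5.41% in Balilla-2x. NAL1 varied by 4.81% in Balilla-4x and 15.5% in Balilla-2x, and SRL1 by 4.83% and 15.5% in the same lines. With 3 libraries a line, these spreads are descriptions and were not tested against each other or against counting error. The medians are over genes of all count levels, so a low value does not show that a gene is steady.

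Neighbouring genes were counted in locus order, which gives the sequence of genes along a chromosome and not a distance. Of the 70 tested genes nearest to the 7 loci, taken as 5 on each side, 20 were called (28.6%), 10 higher and 10 lower, a share near the 26.1% of all tested genes. With 10 on each side of the 7 loci, 31 of 140 were called (22.1%). Around ROC5, 5 of 10 neighbours were called, 4 higher and 1 lower. Log2 fold changes of these 10 ran from -0.54 to 1.2, with a median of 0.45. With 10 neighbours on each side of ROC5 the count was 6 of 20, and the median 0.22. Around ACL1, 3 of 10 were called, 2 higher and 1 lower, and the median was -0.08. Around NAL1, 5 of 10 were called, 1 higher and 4 lower, with a median of -0.18. With 10 on each side of NAL1 the count was 7 of 20. Around ADL1, 1 of 10 was called, with 51 counts over the Balilla-4x libraries and 1 over the Balilla-2x libraries. Its fitted log2 fold change of 5.24 depends on the small count that edgeR adds. SRL1, SLL1 and DL had 2 called neighbours of 10 each.

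**Figure D5:**
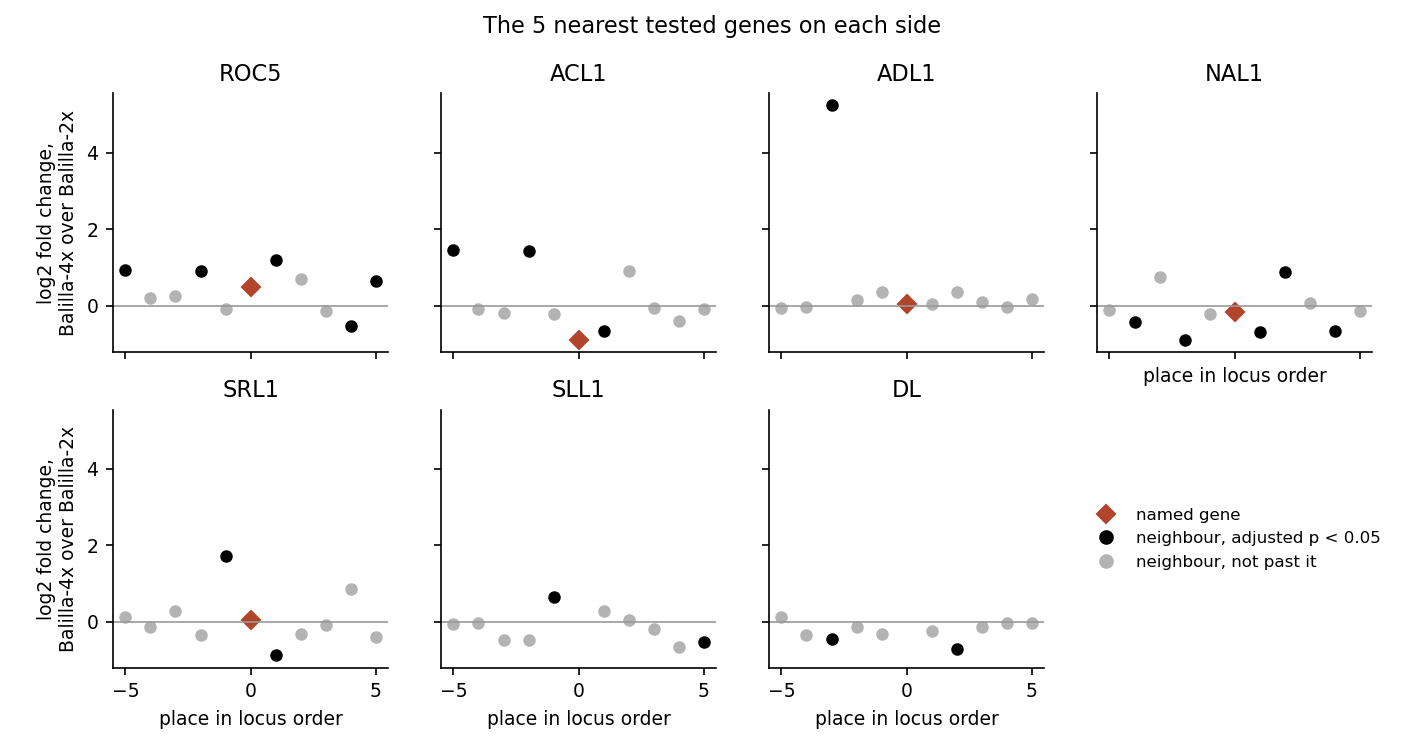
Log2 fold change, Balilla-4x over Balilla-2x, of the 5 nearest tested genes on each side of the 7 loci in locus order. Red diamonds are the named genes (absent for SLL1 and DL, which were not tested), black points are neighbours with an adjusted p under 0.05 and grey points the remaining neighbours. Around ROC5, 4 of 10 neighbours are called higher and 1 lower, and 1 neighbour of ADL1 stands at 5.24.

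The gene whose profile over the 6 libraries was most like that of a changed gene was found by the Euclidean distance between log2 CPM values centred on each gene's mean. For ROC5 it was LOC_Os01g48720 on chromosome 1, at a distance of 0.06, with 510, 574 and 528 counts in Balilla-4x and 386, 372 and 363 counts in Balilla-2x. For ACL1 it was LOC_Os01g53820 on chromosome 1, at a distance of 0.15, with 105, 59 and 83 counts in Balilla-4x and 120, 160 and 165 counts in Balilla-2x. The ACL1 distance is the wider, and the files give neither of these identifiers a name. A close profile over 6 libraries of 2 lines is a description.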

How the data were processed

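Leaf RNA of 3 Balilla-4x and 3 Balilla-2x libraries was analysed. Per the labels' protocols, Trizol was used for extraction and Illumina's TruSeq kit for the libraries. The aligner named in the submitters' processing notes is HISAT2 2.1.0. The counter, build, annotation and strand setting are not given in these sources, so reads shared with overlapping or similar genes could not be assessed. The authors deposited raw read counts per gene, per the file headers, and FPKM values per library. The gene length implied by a count and its FPKM was whole within 0.01 bases for 100% of 155700 nonzero values.

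Tests on counts used edgeR 4.0.16 under R 4.3.3 (filterByExpr, TMM, quasi-likelihood F test, two-sided, Benjamini-Hochberg adjustment over 20976 genes holding 99.9% of counts, threshold 0.05). Intervals on fold changes use the test's standard error. log2 CPM used a prior count of 2, and the ratio tests added 0.5 to each count. The procedure was run on simulated counts that had the same dispersion, the setting for spread between libraries, in every gene. That run does not cover genes of unequal spread, as in these data. Alternatives used DESeq2 1.42.0 and limma 3.58.1 (voom, and log2 of FPKM plus 0.1, 1 or 5). Count floors and Poisson-type intervals cover counting error only. Values are relative to each library's total RNA, and the labels name no batch.

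All 7 genes are described, and the most similar gene is named for each called one. The 7 genes and the rules were chosen with earlier results of these data known. A list of 20 other leaf genes and a list of 12 marker genes could not be used, since 0 identifiers of the count table occur among the 39387 genes of the RefSeq table. No sequences are printed. The labels do not say that replicate numbers pair the libraries, so the main fit used no pairing.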

Additional observations from a re-analysis of the deposited data

How the results depend on the processing

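ROC5 kept its direction and its call in all 17 alternatives run for it, with log2 fold changes of 0.40 to 0.58 and adjusted p from 0.000178 (DESeq2) to 0.0243 (edgeR). ACL1 kept its direction in all 17 and its call in 13, with adjusted p of 0.00216 (DESeq2) to 0.0388 (edgeR with the replicate block) when all libraries were used. The 4 others left out a library. The number of called genes, 2, was 1 to 2 over the 6 fits with a library left out, and ACL1 was the gene lost in the 4 fits with 1, where 14.2% to 18.7% of all tested genes were called, against 26.1% with every library. The number changed at least 2-fold, 0, was 0 to 1 in these fits. ACL1 passed that size without Balilla-4x replicate 1 (log2 fold change -1.07) and without Balilla-2x replicate 1 (-1.02). SRL1 ran from -0.043 without Balilla-2x replicate 3, where its sign turned, to 0.18 without Balilla-2x replicate 1, and NAL1 and ADL1 were called in none of their 17 alternatives. The order of the tested genes by mean FPKM over both lines together was ADL1, ROC5, NAL1, ACL1 and SRL1. It did not change in the alternatives run, which is not a check of the separate orders within each line. The deviations of same-numbered libraries correlated at 0.002, -0.02 and -0.04, so no large shared deviation was seen. Such correlations cannot exclude a pairing in the design, which the labels do not state. With the replicate number as a block, 2 of the genes were called and 0 changed at least 2-fold, and 22.0% of all tested genes were called. At 16738447 to 18106962 counts a library, SLL1 (at most 8 counts) and DL (0) could not be compared.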
